A study of Mus musculus with 6 samples.

Results

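Untreated Flk1-positive cells of day 3.5 embryoid bodies are described here by the level and spread of their genes over 3 arrays. These are the arrays whose titles call them controls at day 3.5, replicates 1 to 3, and they are 3 of the 6 arrays in the series. The cells were derived from ER71 A17C, a mouse embryonic stem (ES) cell line of 129P2/Ola background. The line carries a doxycycline-inducible Etv2 cassette, which the untreated cells hold too. The label of the line also holds the name ER71 A2Lox.cre. Cells were aggregated in hanging drops into embryoid bodies, kept under conditions that induce mesoderm until day 3.5, and sorted for Flk1, the receptor protein made from Kdr. The design text calls the controls untreated, while the treatment field of these samples names doxycycline at 0.5 microg/ml, started on day 3.0, in the same text that the other 3 samples carry. The group was taken from the titles and the design text, and no label tells whether the replicates were separate cultures. All cells come from 1 modified ES line, and the arrays measured the RNA of sorted populations in bulk, so fewer cells of a type and less RNA per cell cannot be told apart.

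Flk1 is the main receptor for vascular endothelial growth factor (VEGF), and in the early embryo it marks mesoderm that leaves the primitive streak. In differentiating ES cells, Nodal, Wnt and BMP signals start a similar sequence, in which the epiblast-like cells switch on the T-box factor Eomes and the homeobox factor Mixl1 and then Mesp1, a basic helix-loop-helix factor of nascent mesoderm. Flk1-positive mesoderm can give rise to endothelium, blood, heart muscle and smooth muscle, depending on later signals. Etv2, an ETS-family factor, drives the step from this mesoderm to the endothelial and blood lineages.

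Values are log2 expression from RMA, a method that removes background, brings the arrays to a shared distribution and reduces the probes of a set to 1 value. One probe set, the one with the highest mean over the 3 controls, stood for each of 18193 genes. The median gene lay at 8.23, and 1 in 20 genes lay above 12.24. No detection calls were used, so a dim reference was taken from 71 odorant and pheromone receptor genes, which are silent outside sensory neurons. Its value, 7.73, is the 95th percentile of their means, which ran from 4.06 to 8.74. The mean of 10307 genes, 56.7%, lay above it. A gene at or below the reference was not distinguishable from dim probe sets, which does not show that it is absent. Probe sets differ in how strongly they bind their transcript, so an order of genes by signal is not an order of transcript amounts.

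The 4 genes that mark Flk1-sorted nascent mesoderm all lay above the dim reference in every control. Kdr, the gene of the sorted protein, had log2 levels of 10.02, 8.40 and 10.97 in controls 1, 2 and 3. Since the sort selects on its protein, its level above the dim reference is a check of the gate. In control 2 the check is weak, since Kdr there lay below the highest mean of the odorant and pheromone receptor genes. Mesp1 had log2 levels of 12.92, 11.30 and 13.05. For both genes controls 1 and 3 were the nearer pair and control 2 was the low array. Eomes, which opens the mesoderm and endoderm programmes of the streak, had log2 levels of 13.55, 13.35 and 13.70. Mixl1, a streak factor for mesoderm and endoderm, had log2 levels of 13.64, 13.14 and 13.64. Control 2 was again the lowest array for both, by less than 2-fold. Etv2 itself had log2 levels of 9.92, 8.59 and 10.71 without induction. Its level in control 2 also lay below the highest mean of the odorant and pheromone receptor genes. Whether the probe set separates the cell's own transcript from that of the cassette was not checked. The labelled cell type therefore had its 4 markers above the dim reference, at a level of Kdr and Mesp1 that differed between arrays.

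**Figure D1:**
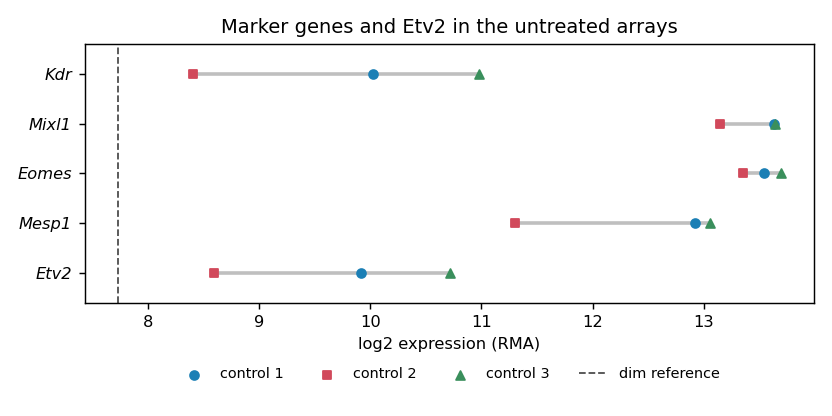
Log2 expression (RMA, x axis) of Kdr, Mixl1, Eomes, Mesp1 and Etv2 in each of the 3 untreated arrays, 1 symbol per array, with a grey bar from the lowest to the highest. The dashed line is the dim reference at 7.73, and control 2 is the lowest array for each of the 5 genes.

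Control 2 stood apart from the other controls among the widely spread genes, though not over all genes. The median absolute difference over all genes was 0.10 between controls 1 and 2, 0.12 between controls 1 and 3 and 0.13 between controls 2 and 3, so the typical gene placed controls 1 and 2 nearest. The range of a gene is its highest minus its lowest control on the log2 scale, and its median was 0.19, or 1.14-fold. A range of at least 1, which is 2-fold, was found for 333 genes, 1.83% of those measured. Controls 1 and 3 were 2-fold apart in 24 genes (0.132%), controls 1 and 2 in 155 (0.852%), and controls 2 and 3 in 306 (1.68%). Without control 2 the count of 333 is therefore 24. Among the 333 genes, control 2 was the array apart in 270, or 81.1%. It was the low array in 140 genes (0.77% of all genes measured) and the high array in 130 (0.715%). Control 3 was apart and low in 40 (0.22%) and apart and high in 9 (0.0495%). Control 1 was apart and high in 13 (0.0715%) and apart and low in 1 gene (0.0055%), Rassf2, which was below the dim reference. Of the 333 genes, 282 (84.7%) had controls 2 and 3 at the ends with control 1 between them, an order seen in 41.8% of all genes.

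Control probe sets of the array had another order. The 5′ probe set of 18S ribosomal RNA had log2 levels of 14.39, 12.77 and 10.33 in controls 1, 2 and 3, so control 3 was lowest and control 1 highest. The 3′ minus 5′ difference of Actb, a sign of RNA integrity, was 0.26, 0.24 and 0.60 on the log2 scale, and that of Gapdh was 0.10, -0.05 and 0.32. Control 3 was thus the highest for both differences, and control 2 was close to control 1 for Actb. The part of RNA quality in the spread was not tested. Spread also varied with level. The share of genes with a 2-fold range was 0.418% among the 4548 genes with the lowest means, 1.67%, 3.65% and 1.58% in the next 3 groups of about that size, and 2.62% among the 10307 genes above the dim reference.

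**Figure D2:**
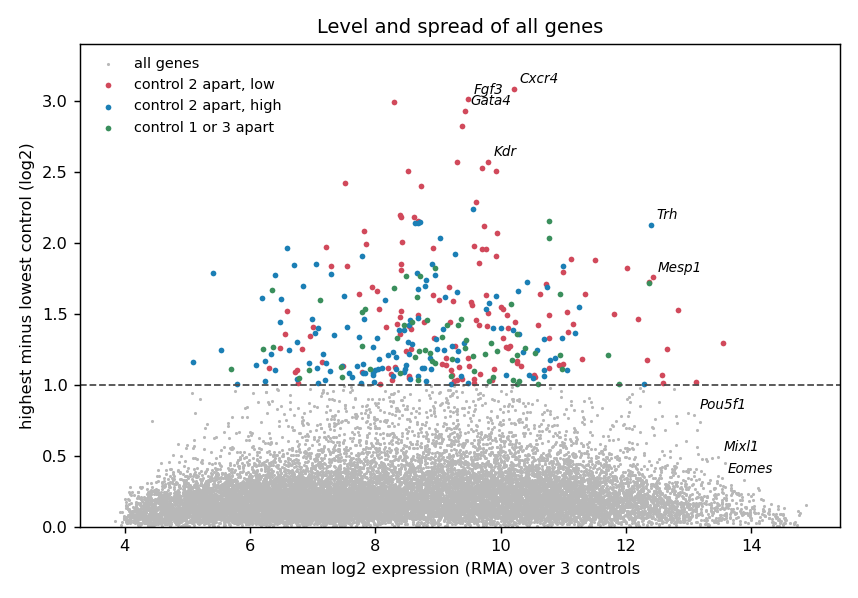
Range over the 3 controls (highest minus lowest, log2, y axis) against mean log2 expression (x axis) for all 18193 genes, with the 333 genes at or above 2-fold (dashed line) coloured by the array that stands apart. Red and blue points, with control 2 low or high, make up 270 of them, while Eomes, Mixl1 and Pou5f1 lie below the line at high levels.

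The promoters of 4 named genes are shown as examples of genes with control 2 lowest or highest. Kdr, Mesp1 and Fgf3, a fibroblast growth factor of the streak and early mesoderm, were lowest in control 2. Zfp42, which encodes the naive ES cell protein Rex1, was highest there. The 250 bases before each start site were taken from RefSeq (GRCm38.p6) and are written 5′ to 3′ on the gene's own strand. They lie at chr5:75978456-75978705 on the minus strand for Kdr, chr7:79793591-79793840 on the minus strand for Mesp1, chr7:144838362-144838611 on the plus strand for Fgf3 and chr8:43307010-43307259 on the minus strand for Zfp42. Capitals mark matches to 4 motifs, each searched on both strands. The half-site of T-box factors was taken as GGTGTGA. The octamer, which Pou factors bind, was taken as ATGCAAAT. The core site of Tcf and Lef factors, the nuclear end of Wnt signalling, was taken as CTTTGA. The site of Gata factors was taken as AGATAA.
Kdr: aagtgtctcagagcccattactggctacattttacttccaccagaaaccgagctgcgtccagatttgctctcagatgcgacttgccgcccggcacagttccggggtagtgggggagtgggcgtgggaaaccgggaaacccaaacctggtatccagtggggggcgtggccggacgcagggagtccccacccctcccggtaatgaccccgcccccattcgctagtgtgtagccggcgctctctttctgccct
Mesp1: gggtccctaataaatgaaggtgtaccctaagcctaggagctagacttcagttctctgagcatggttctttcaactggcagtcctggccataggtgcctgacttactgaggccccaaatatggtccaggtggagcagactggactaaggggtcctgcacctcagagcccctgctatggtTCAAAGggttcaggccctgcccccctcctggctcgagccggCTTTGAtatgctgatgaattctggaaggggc
Fgf3: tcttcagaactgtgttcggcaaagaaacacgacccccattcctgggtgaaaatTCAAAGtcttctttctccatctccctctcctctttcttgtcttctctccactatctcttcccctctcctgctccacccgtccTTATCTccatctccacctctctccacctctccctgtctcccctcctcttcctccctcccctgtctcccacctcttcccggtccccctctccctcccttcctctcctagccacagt
Zfp42: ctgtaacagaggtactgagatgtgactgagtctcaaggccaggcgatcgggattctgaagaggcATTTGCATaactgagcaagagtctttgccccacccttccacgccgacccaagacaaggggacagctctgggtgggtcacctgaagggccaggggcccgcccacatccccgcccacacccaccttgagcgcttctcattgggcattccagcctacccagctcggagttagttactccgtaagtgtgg
The Kdr window held 0 of these motifs. The Mesp1 window held 2 Tcf/Lef cores, 1 on each strand, the Fgf3 window 1 Tcf/Lef core and 1 Gata motif, and the Zfp42 window 1 octamer. Such matches are common. For shares over genes the window searched was longer, from 250 bases before to 50 bases after the start site. A gene counted if any of its promoter entries held the motif. Of 14452 measured genes with a promoter in the table, 15.8% held the Tcf/Lef core and 9.54% the Gata motif. The T-box half-site was held by 4.37% and the octamer by 1.68%. Among the 109 such genes of the control 2 low class the shares were 20.2%, 10.1%, 4.59% and 2.75%. Of the 104 in the control 2 high class, 26 held the Tcf/Lef core, 9 the Gata motif, 3 the T-box half-site and 3 the octamer. A match is a description of letters and shows no binding.

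Transcription factors of the streak and of pluripotency were both among those with the highest signals. Of 698 transcription factors measured, 362 had a mean above the dim reference, or 51.9% against 56.7% of all genes. The 10 highest means belonged to Ybx1, Eomes, Mixl1, Sox4, Sall4, Peg3, Hmgb2, Pou5f1, Smad4 and Hif1a, and ran from 13.95 to 12.71. Pou5f1 encodes Oct4, the core factor of pluripotent cells, and had log2 levels of 13.13, 13.46 and 12.67 in controls 1, 2 and 3. Its order was the reverse of that of Eomes, with control 2 highest and control 3 lowest, within a range of 0.79. Sall4, a zinc finger partner of Oct4, had log2 levels of 13.21, 12.85 and 13.37. Sox4, an early mesenchymal and progenitor factor, had 13.40, 13.33 and 13.41, a range of 0.09. Ybx1, a cold-shock domain protein that binds nucleic acids in most cells, had 13.94, 13.94 and 13.97. The spread of these last 2 genes was below the median of all genes. Smad4, the common partner of the TGF-beta and BMP Smads, stood at 12.81 ± 0.075 (SD, n = 3). Hif1a, the oxygen-regulated factor, stood at 12.71 ± 0.073, and Hmgb2, a chromatin protein of dividing cells, at 13.10 ± 0.063. Peg3, an imprinted zinc finger gene, was the one of the 10 with a 2-fold range, at 13.33, 12.51 and 13.53.

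The transcription factor families, formed after the values were seen, differed in how many members lay above the dim reference. The share above it was 51.9% over all transcription factors and 56.7% over all genes. All 4 Sall genes, all 3 measured Tcf and Lef genes, 7 of 8 Smad genes and 20 of 23 Klf and Sp genes did. Sp5, a target of Wnt signalling, led the last group at log2 levels of 12.36, 11.73 and 12.58. Of 24 ETS genes 13 lay above it, led by Etv5, Gabpa and Etv4. Of 37 Fox genes 21 did, of 19 Sox genes 10, of 15 T-box genes 5 and of 33 Hox genes 7. The ETS, Fox and Sox counts were near the share of all genes. The Hox genes above the reference included Hoxb1, Hoxb2 and Hoxa5, whose means were 8.54, 8.53 and 8.65. Of 19 basic helix-loop-helix genes of nerve and muscle, 2 lay above it, Neurod2 and Atoh7. Of 13 Hes, Hey and Id genes, the Notch and BMP effectors, 8 lay above it. A 2-fold range was found for 0 of the 13, beside 1.83% of all genes.

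Of 698 transcription factors, 54 had a 2-fold range, 7.74% beside 1.83% of all genes, and control 2 was the low array in 38 and the high array in 11. Of the 54, 17 were on a streak, paraxial or lateral and cardiac mesoderm list, which between them held 37 of the 698. Gata4, Gata6, Gata2 and Gata3, zinc finger factors of mesoderm, endoderm and blood, all had control 2 low. Gata4 had log2 levels of 9.67, 7.85 and 10.78 and Gata6 had 11.11, 9.58 and 11.22. Control 2 lay below both other controls by over 1.5 for each. Gata3, at 7.82, 6.15 and 8.58, had a mean below the dim reference. The 11 with control 2 high included Sox2, Utf1, Pou3f1, Sox3, Zfp42 and Foxd3, genes of ES cells, epiblast or neural precursors. Between controls 1 and 3 alone, 3 of the 698 were 2-fold apart, namely Gata4, Zic2 and Dppa4, beside 0.132% of all genes. The families were formed after the values were seen.

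Receptors of the Nodal, apelin, Wnt and PDGF pathways were among those with the highest signals. Of 136 receptors measured, 94 had a mean above the dim reference, or 69.1% beside 56.7% of all genes. Tdgf1, the Nodal co-receptor Cripto, had log2 levels of 13.73, 13.61 and 13.86 in controls 1, 2 and 3, a range of 0.25. Aplnr, the apelin receptor of migrating mesoderm, had 13.19, 11.89 and 13.42, and Pdgfra, a receptor of paraxial and cardiac mesoderm, had 11.71, 9.89 and 11.78. Control 2 was over 2-fold below both other controls for these 2 genes, while controls 1 and 3 differed by 0.23 for Aplnr and 0.08 for Pdgfra. F2r, a thrombin receptor, stood at 12.19 ± 0.12 (SD, n = 3), and Fzd7, a Wnt receptor, at 12.04 ± 0.35. Lgr4, a receptor for R-spondins, stood at 11.60 ± 0.20, and Lpar4, a receptor for lysophosphatidic acid, at 11.49 ± 0.23. Acvr2b and Tgfbr1, the type II and type I receptors of the activin and TGF-beta class, stood at 11.33 ± 0.20 and 11.28 ± 0.11. Smo, the signal transducer of the hedgehog pathway, stood at 11.31 ± 0.21. These 7 genes had ranges under 2-fold.

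Among receptor tyrosine kinases, all 8 genes of the VEGF, PDGF and Kit classes lay above the dim reference, beside 56.7% of all genes. Kdr and Pdgfra were the 2 with a 2-fold range, beside 1.83% of all genes. Kit, the stem cell factor receptor, had log2 levels of 9.87, 10.23 and 10.14, and Flt1, the other main VEGF receptor, had 9.51, 9.11 and 9.39. Neither followed Kdr in its spread of 2.57. The Tie kinases of mature endothelium, Tek and Tie1, had means of 6.20 and 5.32, below the dim reference. Of 15 Frizzled, Lrp and Lgr receptors 12 lay above it and 0 had a 2-fold range, beside 56.7% and 1.83% of all genes. In all, 15 receptors had such a range, 11.0% of the 136 beside 1.83% of all genes. Control 2 was low in 12 (0.77% of all genes) and high in 1 (0.715% of all genes), Erbb3. Cxcr4, the chemokine receptor of migrating mesoderm and endoderm, had log2 levels of 10.56, 8.50 and 11.58. Nrp1, a VEGF and semaphorin co-receptor, had 8.63, 6.63 and 9.63. The range of 3.09 of Cxcr4 was the widest of all 18193 genes, and in control 2 Nrp1 lay below the dim reference. Cxcr4 was also 2-fold apart between controls 1 and 3, as were Ptk7 and Epha1, so 3 of the 136 receptors beside 0.132% of all genes.

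The ligands with the highest signals were a heparin-binding factor, a hormone precursor and factors of the epiblast and streak. Of 135 ligands measured, 72 lay above the dim reference, or 53.3%, near the 56.7% of all genes. Mdk (midkine), a heparin-binding growth factor of embryonic tissues, stood at 13.41 ± 0.072 (SD, n = 3). Trh, the precursor of thyrotropin-releasing hormone, had log2 levels of 12.26, 13.53 and 11.40 in controls 1, 2 and 3. Nodal, the TGF-beta class signal that starts the streak, had 11.73, 12.32 and 11.11. Both had control 2 highest and control 3 lowest, with ranges of 2.13 and 1.21. Fgf5, an epiblast marker, stood at 11.49 ± 0.17. Fgf8, which streak cells need to leave the streak, stood at 11.11 ± 0.27, and Apln, the apelin precursor, at 10.82 ± 0.087. The Notch ligand Jag1 had log2 levels of 11.64, 10.85 and 11.75, and Dll3, a Notch modulator of presomitic mesoderm, had 11.33, 9.94 and 11.73. Control 2 was lowest for both, past 2-fold for Dll3. Sema3f, a repulsive guidance cue, stood at 10.98 ± 0.17, and Rspo3, which strengthens Wnt signals, had 11.07, 10.27 and 11.01.

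Several ligands of the streak and mesoderm were among the most spread genes. Of the 135, 21 had a 2-fold range, or 15.6% beside 1.83% of all genes, with control 2 low in 13 and high in 6. Fgf3 had log2 levels of 9.90, 7.77 and 10.78, the second and last gene with a range of over 8-fold beside Cxcr4. Wnt5a, a ligand of the planar polarity branch, had 9.53, 7.13 and 9.52, and Wnt2 had 8.86, 7.09 and 9.60. Both Wnt genes were below the dim reference in control 2 and above it in controls 1 and 3. Bmp4, the main BMP of mesoderm induction, had 9.22, 8.66 and 9.76. On the other side stood Cxcl12, the ligand of Cxcr4, at 9.23, 10.26 and 8.34. Its order of arrays, 2 then 1 then 3, was the reverse of that of its receptor. Between controls 1 and 3 alone, 0 of the 135 ligands were 2-fold apart, beside 0.132% of all genes. The 3 hedgehog ligands, Shh, Ihh and Dhh, lay below the dim reference, as did Vegfa at a mean of 7.42, while Vegfb, at 10.67, lay above it.

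Among secreted antagonists of the same pathways, Fst, Frzb and Dkk1 had the highest signals. Of 32 measured, 18 lay above the dim reference, or 56.2%, near the 56.7% of all genes. Fst, follistatin, which binds activin, had log2 levels of 13.27, 13.17 and 13.18 in controls 1, 2 and 3. Frzb, which binds Wnt proteins, had 12.08, 10.92 and 12.42, and Dkk1, which blocks the Wnt co-receptor, had 11.40, 10.25 and 11.35. Control 2 was the low array for both Wnt antagonists, while the 3 values of Fst lay within a range of 0.10. Twsg1, a modulator of BMP activity, stood at 10.67 ± 0.26 (SD, n = 3) and Fstl1, a follistatin-like protein, at 10.63 ± 0.025. The Nodal antagonists Lefty1 and Lefty2 differed in order, with 10.57, 11.22 and 9.97 for Lefty1 and 10.59, 9.83 and 10.43 for Lefty2. Control 2 was thus highest for Lefty1 and lowest for Lefty2. Of the 32 antagonists 5 had a 2-fold range, 15.6% beside 1.83% of all genes, among them Bmper, which binds BMPs, at 9.97, 7.67 and 10.49. Nog (noggin) had a mean of 5.90, below the dim reference.

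**Figure D3:**
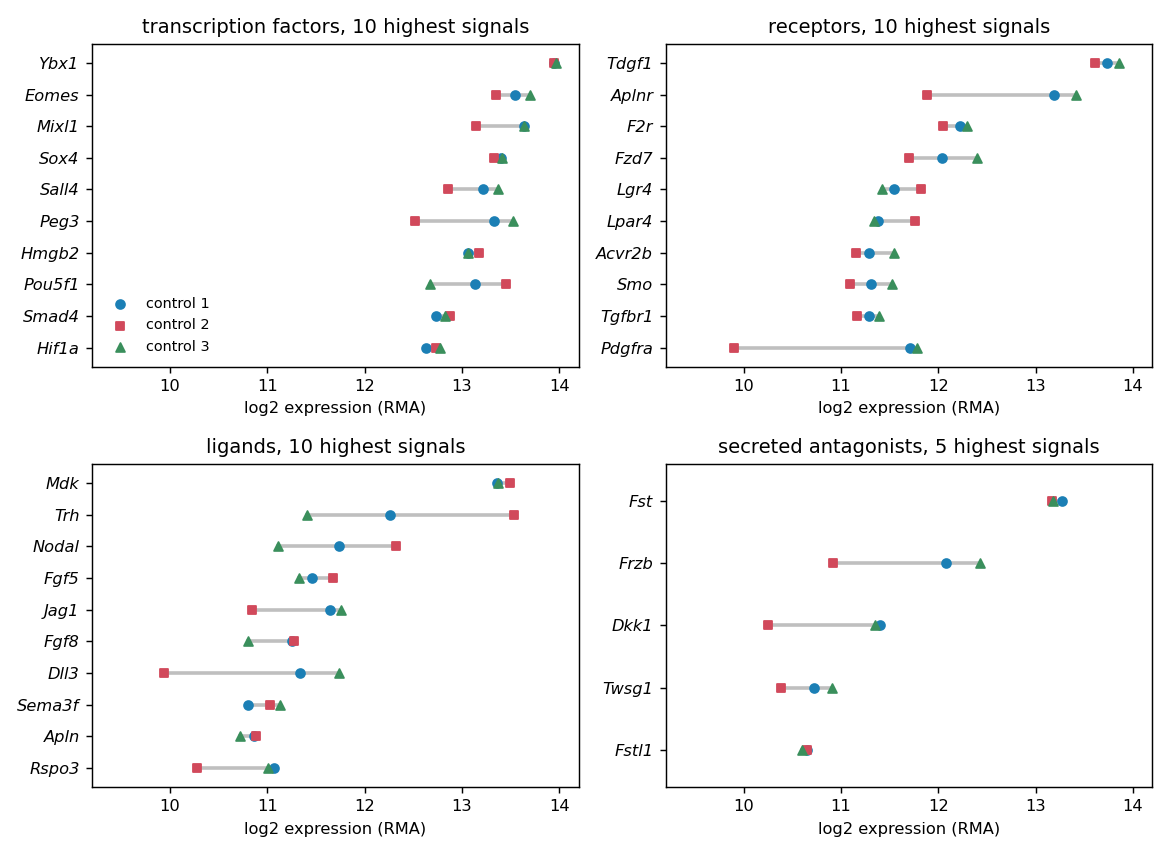
Log2 expression (RMA, x axes) in each of the 3 untreated arrays for the 10 highest means among transcription factors, receptors and ligands and the 5 highest among secreted antagonists. Grey bars run from the lowest to the highest array. Control 2 is far below the others for Aplnr, Pdgfra, Dll3, Frzb and Dkk1 and above them for Trh, Nodal and Pou5f1.

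Most streak and nascent mesoderm genes lay above the dim reference, and control 2 was the lowest array for 17 of the 19 measured. Of the 19 measured members of this list, 16 lay above the dim reference, 84.2% beside 56.7% of all genes. Over all 18193 genes, control 2 was lowest in 4540 with control 3 highest and in 2539 with control 1 highest. Of the 19, 8 had a 2-fold range, 42.1% beside 1.83% of all genes, with control 2 low in all 8. The mean of the list was 10.51, 9.77 and 10.65 in controls 1, 2 and 3. Besides Mesp1 and Fgf3, the 8 held Lhx1, Lef1, Mesp2, Snai1, Cer1 and Tbx6, among them factors of the organiser, of Wnt signalling and of the epithelial to mesenchymal transition. Snai1, the repressor that drives that transition, had log2 levels of 9.97, 8.78 and 10.20, and Tbx6, a factor of paraxial mesoderm, had 8.80, 7.30 and 9.15. Fgf8, Gsc, Apln and Cdx2 did not share this spread, since their ranges were 0.47, 0.56, 0.16 and 0.14, and control 2 was the highest array for Fgf8 and Apln. Msgn1, Wnt3 and Cdx1 had means below the dim reference, as Tbx6 had its level in control 2. Between controls 1 and 3, 0 of the 19 were 2-fold apart, beside 0.132% of all genes.

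The later mesoderm lists also had control 2 lowest on average, with a smaller share of members above the dim reference. Of 20 lateral and cardiac mesoderm genes, 13 lay above it, or 65.0%, and of 15 paraxial mesoderm genes 9, or 60.0%, both near the 56.7% of all genes. A 2-fold range was found for 11 of the 20 and 6 of the 15, beside 1.83% of all genes, with control 2 low in 10 and 6. Msx1, a target of BMP signals, had log2 levels of 11.53, 10.26 and 11.69, and Tbx3, a T-box factor that serves both ES cells and the early heart, had 10.18, 8.55 and 11.05. Foxf1, a factor of lateral plate and extraembryonic mesoderm, was the exception with control 3 high, at 8.30, 7.82 and 9.24. Tbx5, at a mean of 7.84, lay just above the dim reference, while Nkx2-5, Mef2c, Hand2 and Tbx20, which act in heart formation, lay below it. The paraxial list was led by Dll3 and Mesp2, and its widest range was that of Foxc1 at 9.18, 7.17 and 8.91. The list means in controls 1, 2 and 3 were 8.96, 8.19 and 9.23 for lateral and cardiac mesoderm and 8.11, 7.51 and 8.27 for paraxial mesoderm.

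Regulators of the haemangioblast, the common precursor of blood and endothelium, lay above the dim reference about as often as all genes did. Of 16 measured, 9 lay above it, or 56.2% beside 56.7% of all genes. A 2-fold range was found for 4, beside 1.83% of all genes, namely Etv2, Sox17, Gata2 and Zfpm1, all with control 2 low. Sox17, a factor of endoderm and of haemogenic endothelium, had log2 levels of 10.02, 8.29 and 10.81. Cbfb, the partner of the Runx factors, had the highest mean at 12.50 ± 0.18 (SD, n = 3). Lmo2 and Runx1, later regulators of blood formation, had 8.58, 8.67 and 8.87 and 8.48, 8.42 and 8.52. Their arrays lay close together, unlike those of Etv2. The means of Lmo2, Runx1 and Zfpm1 lay below the highest mean of the odorant and pheromone receptor genes. Tal1, Lyl1, Gata1, Fli1, Erg, Sox7 and Sox18 had means from 5.87 to 7.14, below the dim reference.

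Genes of primed and general pluripotency had high signals and were mostly highest in control 2, while naive genes were mixed. All 17 measured genes of primed and general pluripotency lay above the dim reference. Their list mean was 11.29, 11.77 and 11.06 in controls 1, 2 and 3, and control 2 was the highest array for 14 of them. Over all genes, control 2 was highest in 16.8% with control 3 lowest and in 12.1% with control 1 lowest. Of the 17, 7 had a 2-fold range, beside 1.83% of all genes, 4 with control 2 high and 3 with control 3 low. Dnmt3b, a DNA methyltransferase of the epiblast, had log2 levels of 13.40, 13.84 and 13.49, and Utf1, a chromatin factor of ES cells and epiblast, had 10.13, 11.44 and 9.71. Dppa4, a pluripotency-associated nuclear protein, had 9.12, 9.78 and 7.96, with control 3 the array apart. Of 15 naive pluripotency genes 9 lay above the reference, or 60.0% beside 56.7% of all genes. Their list mean was 8.42, 8.71 and 8.43, and control 2 was highest for 8 of them and lowest for 4. The naive list was led by Nanog at 12.10, 12.85 and 11.89 and Klf5 at 11.45, 11.43 and 11.30. Zfp42 had 8.65, 9.76 and 8.02, while Klf4, Dppa3 and Prdm14 had means of 7.06, 6.39 and 6.29, below it. Tbx3 was the one member of this naive list with control 2 low among its 5 with a 2-fold range.

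Endoderm genes were split between these orders. Of 14 definitive endoderm genes 12 lay above the dim reference, 85.7% beside 56.7% of all genes. A 2-fold range was found for 7, beside 1.83% of all genes, 5 with control 2 low and 2 with control 2 high. Cxcr4, Sox17, Gata4, Gata6 and Cer1 were the 5, and Trh and Cldn6, the latter a tight junction protein, were the 2. Epcam, an epithelial adhesion protein, had log2 levels of 12.45, 13.00 and 12.12, and Foxa2, a forkhead factor of endoderm and node, had 10.76, 10.69 and 10.49. Visceral endoderm genes were mostly dim, with 4 of 17 above the reference. These were Apoe, Ttr, Hnf4a and Dab2, while Afp, a defining marker, had a mean of 5.66. Apoe, an apolipoprotein also made by other cells, had 11.00, 11.75 and 10.11, and Ttr, transthyretin, had 8.84, 8.91 and 8.94. Of 12 parietal endoderm genes 8 lay above the reference, led by Lamb1 and Sparc at 11.43 ± 0.096 (SD, n = 3) and 11.27 ± 0.068, which many cells use for basement membrane. Thbd, a marker of parietal endoderm, had a mean of 4.80. Of these 12, 4 had a 2-fold range, all with control 2 low, namely Pdgfra, Col4a1, Snai1 and Lama1.

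Most differentiated lineages lay at the level of dim probe sets. The 25 lists of stages and lineages held 377 measured genes, of which 150 lay above the dim reference, beside 56.7% of all genes. In 15 of the lists fewer members lay above it than at or below it. Endothelial cells were one of them, with 6 of 24 above it, namely Egfl7, Sox17, Flt1, Flt4, Eng and Esam. Egfl7, a secreted endothelial factor, had log2 levels of 10.12, 10.34 and 10.03. The defining markers of formed vessels were dim, with means of 6.25 for Cdh5, 6.29 for Pecam1, 6.08 for Cd34 and 5.07 for Vwf. Primitive erythroid cells had 2 of 14, Tfrc at 12.43 ± 0.18 (SD, n = 3) and Epor at 9.11 ± 0.099, of which Tfrc, the transferrin receptor, serves all dividing cells. The embryonic globin Hbb-bh1 had 7.23, 6.61 and 6.87, all below the reference. Macrophages and myeloid cells had 3 of 20, with Coro1a, an actin-binding protein, at 8.36, 9.08 and 7.96 and Laptm5 at 8.36, 8.39 and 8.44. The third was Csf1r, at a mean of 8.27, while Ptprc and Aif1 had means of 5.37 and 5.13. Lymphocytes had 5 of 17, led by Zap70 at 10.18 ± 0.055 and Ighm at 9.48 ± 0.072. Cd3e, Cd8a and Cd4 also lay above the reference, at means of 8.12, 7.91 and 7.76, while Rag1 and Cd79b had means of 4.59 and 5.71.

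The heart and skeletal muscle lists were mostly dim, while the smooth muscle and pericyte list was evenly split. Cardiomyocytes had 2 of 18 members above the dim reference, Actc1 and Myl3, or 11.1% beside 56.7% of all genes. Actc1, cardiac actin, had log2 levels of 9.97, 9.51 and 10.12. Myl7, the atrial myosin light chain, had 7.25, 6.20 and 8.18, so that control 3 alone lay above the reference, and Myh6 had a mean of 4.87. Skeletal muscle had 3 of 18, or 16.7%. Des, an intermediate filament, led it at 8.70, 8.94 and 8.81, then Actn3 at 8.14, 8.35 and 8.29, while Myf5 had a mean of 4.70. Pax7 had the widest range of this list, 0.47. Smooth muscle and pericytes had 8 of 16, led by Tagln at 11.13 ± 0.086 (SD, n = 3) and Notch3 at 11.09 ± 0.16. Rgs5, a pericyte marker, had 8.13, 6.62 and 8.71, with control 2 low, and Myh11, the smooth muscle myosin, had a mean of 6.62.

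Ectodermal, connective tissue and organ lists followed, to be set beside the 56.7% of all genes above the dim reference. Neuroectoderm had 7 of 18 members above the dim reference, led by Otx2, shared with the epiblast, at 12.26, 12.33 and 12.12 and by Msi1 at 11.02, 11.47 and 11.86. Sox3 had 8.51, 10.05 and 8.28, with control 2 high, while Sox1, Pax6 and En1 had means of 5.89, 6.71 and 4.08. Neurons had 9 of 23, led by the neurofilament genes Nefl at 12.64, 12.96 and 12.27 and Nefm at 10.07, 10.68 and 9.73, while Tubb3 had a mean of 7.64 and Snap25 of 5.33. Surface epidermis had 6 of 15, led by Krt8 and Krt18, the simple keratins of early epithelia, at 12.17 ± 0.16 (SD, n = 3) and 11.19 ± 0.18. Lor had the widest range of that list, 0.75, and Krt14 and Trp63 had means of 6.43 and 5.97. Fibroblasts had 6 of 16, led by Pdgfra and the matrix protein Fbln1 at 10.41 ± 0.21, while Col1a1 and Col3a1 had means of 6.33 and 4.70.

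Trophoblast genes had 3 of 13 members above the dim reference, Tfap2c at 9.02 ± 0.063 (SD, n = 3), Hand1 at 9.01 ± 0.32 and Cdx2 at 8.64 ± 0.071, all shared with other early lineages, and Elf5 had a mean of 6.17. Primordial germ cell genes had 9 of 13, or 69.2% beside 56.7% of all genes. Ifitm1 at 12.56, 12.04 and 12.80 and Ifitm3 at 11.08, 11.07 and 11.23 led that list. Sycp3, a protein of meiotic chromosomes, had 10.30, 10.88 and 9.32, with control 3 the low array apart. Kit, Alpl, Tfap2c, Ddx4, Prdm1 and Dnd1 also lay above the reference, at means from 10.08 to 7.91. Dazl and Dppa3 had means of 6.05 and 6.39, below it. Kidney and intermediate mesoderm had 3 of 13, which were Lhx1 at 12.53, 11.29 and 12.75, Sall1 at 10.94 ± 0.32 and Six2 at 10.31, 9.09 and 10.64. Pax8, Wt1 and Osr1 had means of 6.29, 5.88 and 4.91. Hepatocytes and pancreas had 2 of 14, Ins2 at 8.39 ± 0.13 and Cyp2e1 at 7.73 ± 0.069, with Alb at 6.58. Lens and retina had 1 of 14, Crybb1 at 7.96 ± 0.046, followed by Crybb2 at 7.71, and Cryab had the widest range there, 0.62.

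**Figure D4:**
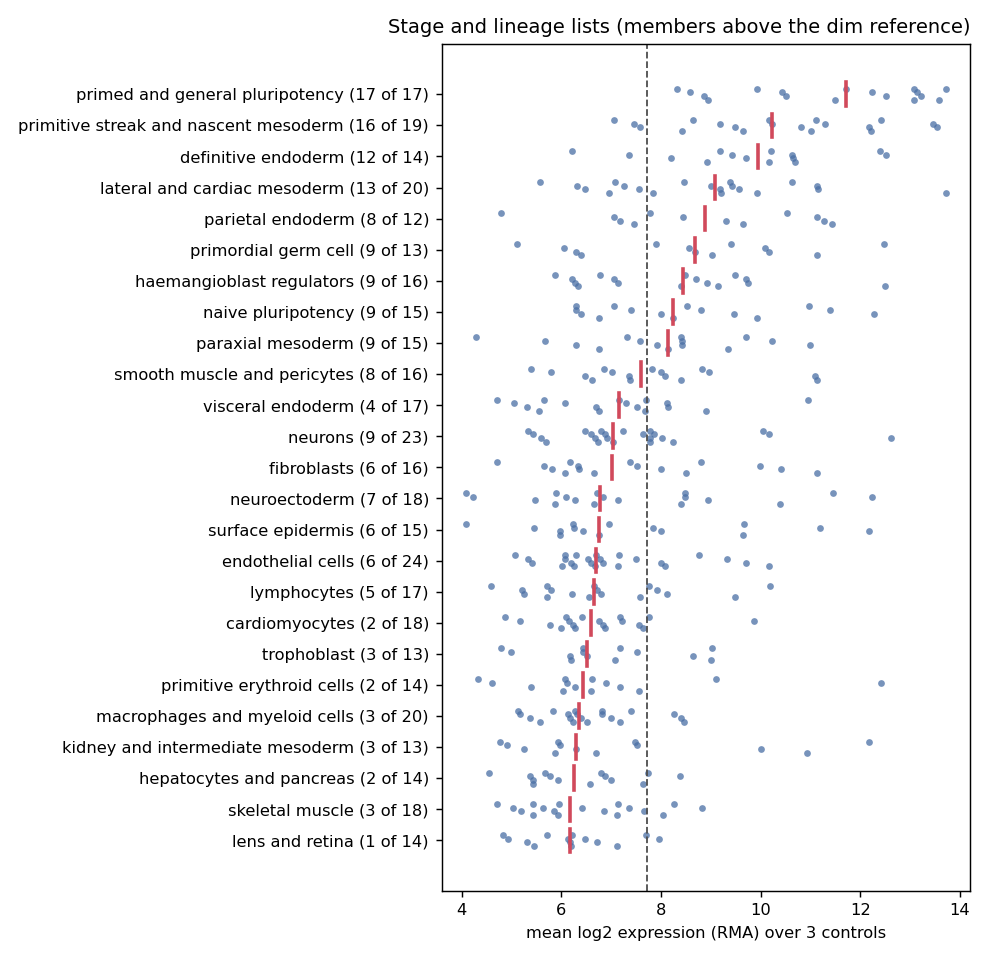
Mean log2 expression (RMA, x axis) over the 3 untreated arrays of each measured member of the 25 stage and lineage lists, 1 point per gene, with a red bar at the list's median and the dim reference of 7.73 as a dashed line. Counts beside each name give the members above that line, from 17 of 17 for primed and general pluripotency to 1 of 14 for lens and retina.

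The genes with the widest spread and control 2 low held signalling genes and transcription factors of several early lineages. The 15 with the widest range, all with means above the dim reference, ran from 2.18 to 3.09 on the log2 scale. They were Cxcr4, Fgf3, Nrp1, Gata4, Bmper, Kdr, Hs3st3b1, Sox17, Wnt2, Tbx3, Wnt5a, Fbn2, Asb4, Zfpm1 and Pmp22. Hs3st3b1, a heparan sulfate sulfotransferase, had log2 levels of 9.93, 7.72 and 10.29, and Fbn2, an embryonic fibrillin, had 9.64, 8.45 and 10.74. Asb4, a ubiquitin ligase subunit found in vascular precursors, had 8.87, 7.05 and 9.24, and Zfpm1, the Gata cofactor Fog1, had 8.68, 7.19 and 9.37. Pmp22, a membrane protein best known from myelin, had 8.82, 7.43 and 9.61. In each of these 15 genes control 2 was the lowest array. Of the 15, 3 were on a mesoderm list (Fgf3, Gata4 and Tbx3) and 6 on any stage or lineage list, among them Cxcr4, Sox17 and Gata4 on the definitive endoderm list. Controls 1 and 3 were nearest for Wnt5a and farthest apart, by 1.11, for Gata4.

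Of the 15 genes with the widest spread and control 2 high, 4 were on a stage or lineage list and 0 on a mesoderm list. The 4 were Trh, Sox3, Zfp42 and Utf1. The ranges of the 15 ran from 1.69 to 2.24, and the genes were Zfp462, Irs4, Uchl1, Enpp3, Trh, Myb, Cxcl12, Ocln, Retreg1, Slc7a3, Sox3, Zfp42, Utf1, Trap1a and Cldn7. Zfp462, a zinc finger protein, had log2 levels of 9.11, 10.91 and 8.67, and Myb, a factor of progenitor cells, had 8.77, 10.19 and 8.15. Ocln and Cldn7, components of tight junctions, had 7.48, 8.89 and 6.99 and 10.68, 11.62 and 9.94. Slc7a3, a transporter of cationic amino acids, had 10.80, 12.02 and 10.18, and Uchl1, a ubiquitin hydrolase, had 8.27, 9.95 and 7.81. Irs4, an insulin receptor substrate, had 8.50, 9.90 and 7.76. Control 3 was the lowest array for all the genes whose values are given here, with control 1 in between.

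**Figure D5:**
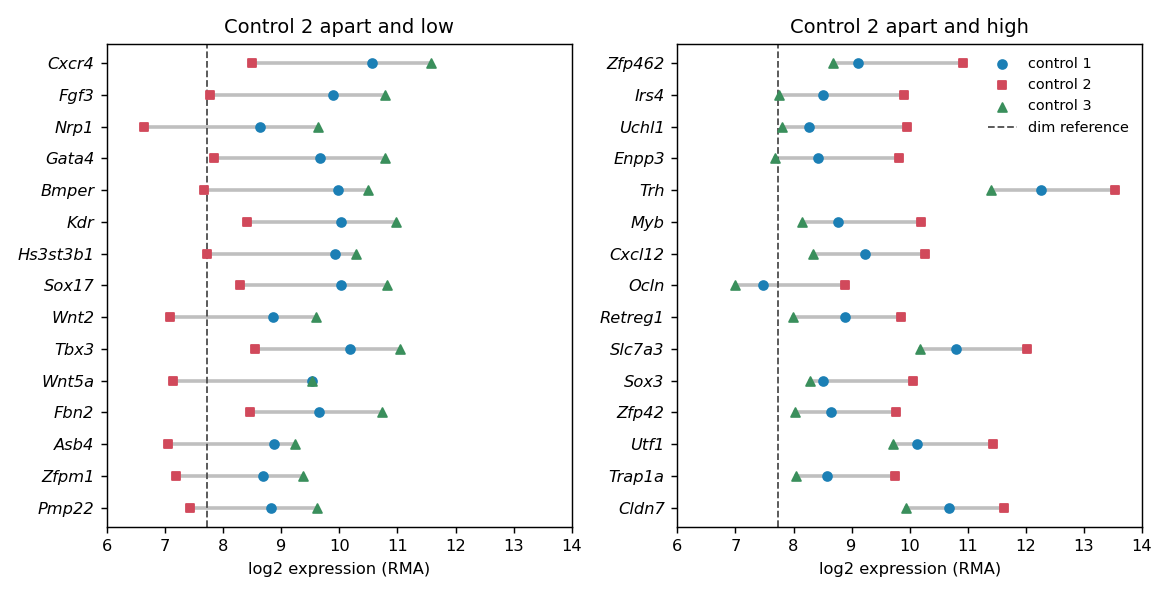
Log2 expression (RMA, x axes) in each untreated array of the 15 genes with the widest range and control 2 low (left) and the 15 with control 2 high (right), with the dim reference at 7.73 as a dashed line. On the left control 2 is the lowest symbol in each row, and control 1 lies between controls 2 and 3 in each row but that of Wnt5a, where controls 1 and 3 nearly coincide. On the right control 2 is the highest.

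The classes without control 2 as the array apart were smaller and held other genes. Malat1, a nuclear long noncoding RNA, had the widest range with control 1 high, at log2 levels of 11.90, 10.66 and 9.74. Its 5 further probe sets above the dim reference had ranges from 0.45 to 2.20, so the width depended on the probe set. Zic2, a zinc finger factor of neural and epiblast cells, followed at 9.61, 8.04 and 7.84, then Xrn1, an RNA exonuclease, at 9.74, 8.44 and 7.98. A further Xrn1 probe set had 8.87, 8.40 and 8.72, with a range of 0.47 and control 2 lowest. Ammecr1 had 9.64, 8.35 and 8.02, and Kifc1, a mitotic kinesin, had 10.12, 9.30 and 8.66. Control 3 was lowest for these 5 genes by the probe sets used, as it was for 18S ribosomal RNA, and the part of RNA quality in them was not tested. With control 3 low, Mt1, the metal-binding metallothionein, had 10.87, 11.73 and 9.70, and Snrpd3, a core spliceosome protein, had 13.01, 12.82 and 11.29. The further probe sets of Snrpd3 had ranges of 0.15 and 0.22, so its spread rests on 1 probe set. Dppa4, Apoe and Sycp3 completed this class's 5 widest. With control 3 high the widest were Parvb, Foxf1, Phldb2, Fgf15 and Dpysl5, with ranges from 1.18 to 1.44.

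Where a gene had further probe sets above the dim reference, most shared its spread. The named genes with a 2-fold range had 68 further probe sets, of which 57 placed control 2 on the same side of the mean of controls 1 and 3 as the one used. Among the 31 of these above the dim reference, 28 did so and 24 had a 2-fold range.

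Lists of general cell function each held at most 1 gene with a 2-fold range, too few to tell the lists apart. The shares above the dim reference in these lists are to be set beside 56.7% of all genes. All 25 measured cell cycle genes lay above it and 0 had a 2-fold range, beside 1.83% of all genes. The shares with a 2-fold range were 5.56% for housekeeping genes, 5.26% for hypoxia and glycolysis and 4.55% for the p53 and stress responses, which is 1 gene in each list. The median range was 0.19 for the cell cycle, 0.18 for housekeeping, 0.20 for hypoxia and glycolysis and 0.30 for the p53 and stress list, beside 0.19 over all genes. Pcna, the replication clamp, had log2 levels of 14.01, 13.98 and 13.93, and Mcm7, of the replicative helicase, had 13.76, 13.71 and 13.81. Ccnd2, a D-type cyclin, had the widest range of that list, 0.67, with control 2 lowest. All 18 housekeeping genes lay above the reference, led by Eef1a1 at 14.76 ± 0.048 (SD, n = 3) and Actb at 14.52 ± 0.033, and Snrpd3 was the 1 with a 2-fold range. Of 19 genes of hypoxia and glycolysis 15 lay above it, led by Ldha at 14.02 ± 0.070 and Aldoa at 13.84 ± 0.064. Pdk1, a kinase that holds back pyruvate oxidation, was the one of them with a 2-fold range, at 9.62, 10.70 and 9.30. Of 22 genes of the p53 and stress responses 20 lay above it, led by Hspa5, an endoplasmic reticulum chaperone, and Trp53inp1, a p53 target, at 13.51 ± 0.025 and 12.49 ± 0.15. Fos, an immediate-early gene, had 10.09, 9.23 and 10.27, with control 2 low.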

How the data were processed

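The authors deposited log2 expression values per probe set from Affymetrix mouse arrays, with RMA as the method that the submitters' processing notes name, from biotin-labelled total RNA per the labels' protocols. The sources used here give neither its version nor its probe annotation. RMA's quantile step can hide a global shift between arrays. The scanner files were not used here, and 3 arrays limit the precision.

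The table held 45101 probe sets, named through the GEO platform annotation: 34958 had 1 symbol, 932 several and 9211 no entry. Entrez identifiers of 34754 were found in RefSeq (GRCm38.p6), and 0 symbols changed. After 13 Affymetrix control probe sets were set aside, 34945 gave 18193 genes, each by its probe set of highest mean in the controls. 9010 genes had several. Python 3.11.15, numpy 2.4.6, pandas 2.3.3 and matplotlib 3.10.9 were used.

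A group of 3 arrays allows no test, so levels, SD and ranges are descriptive. The array apart is the one whose removal leaves the smallest gap. The scripts were tested on simulated data. Alternatives were another normalization, other probe set rules, thresholds and dim references, and each array left out.

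The members and lists were chosen with earlier results of these data known, and the gene families after their values were seen. The 33 lists held 1304 measured genes. Named were Kdr, Mixl1, Eomes, Mesp1 and Etv2, the 10 highest means of transcription factors, receptors and ligands and the 5 of antagonists, and the 2 highest and the most spread member of each other list. Added were, among genes with a 2-fold range and a mean above the dim reference, the 15 widest with control 2 low, the 15 with control 2 high and 5 of each other class, without clone names. Any other gene named was chosen after its values were seen.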

Additional observations from a re-analysis of the deposited data

How the results depend on the processing

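No paired analysis was possible because only 1 group was described and no test between groups was run. The count of 333 genes with a 2-fold range lay between 24 and 306 when 1 array was left out, with 24 without control 2, 155 without control 3 and 306 without control 1. It was 1068 at a threshold of 1.5-fold, 93 at 3-fold and 682 when the most variable probe set stood for each gene. Under that last choice the share with control 2 apart was 50.6% in place of 81.1%, and the cause was not tested. The count was 335 with arrays centred on their medians, 324 after quantile normalization of the 3 controls, 235 with the mean of all probe sets, 328 without probe sets ending in _x_at or _s_at, and 270 among genes above the dim reference. The share with control 2 apart was 80.6% to 82.1% under the centring, normalization, mean and _x_at or _s_at settings. Genes above the dim reference numbered 8499 to 10351 over the settings run. Lists with fewer members above it than not numbered 15 to 19. The dim reference rests on 71 genes, and signals below it have no order. Single values moved by over 1 SD under the probe set choices and not under the centring, quantile or array choices: 51 of 200 list means did (23 of 25 with the mean of all probe sets, 20 with the most variable one and 8 without _x_at and _s_at), and 112 of 1045 gene levels (65, 36 and 11). Of the 35 genes named as highest in the transcription factor, receptor, ligand and antagonist lists, 19 stayed among the highest with the most variable probe set, 18 with the mean of all and 31 to 35 under the other settings.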
